A study of Mus musculus with 8 samples.

Results

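The genes described are Fas, Tnfrsf10b, Eda2r, Perp, Apaf1, Casp9, Casp8 and Casp6, which encode p53-linked death receptors and membrane proteins, the apoptosome scaffold and a set of caspases. They were taken by symbol from the platform annotation: 8 of the 16593 named genes on the array, carried by 19 of its 25697 probes. The samples were cerebella of mouse embryos at embryonic day 17.5, hybridised to Illumina BeadArrays with an array per animal. In the conditional knockout (CKO) group, 4 animals had the genotype Pals1 fl/fl;Cre+, in which hGFAP-Cre removes the polarity gene Pals1 in most neurons and glia of the cerebellum. In the wild-type (WT) group, 4 animals had the genotype Pals1 fl/fl;Cre-, so all 8 animals carried the floxed allele and no group carried Cre without it.

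Cells can start apoptosis by an extrinsic or an intrinsic route. In the extrinsic route a death receptor such as Fas binds its ligand and, through the adaptor Fadd, activates caspase-8. In the intrinsic route cytochrome c leaves the mitochondria and binds Apaf1, which assembles the apoptosome and activates caspase-9. Both initiators then lead, directly or through other caspases, to active executioner caspases, among them caspase-6, whose substrates include lamin A. The transcription factor p53 can raise transcription of Fas, Tnfrsf10b, Eda2r, Perp and Apaf1 after DNA damage or other stress. In the developing cerebellum apoptosis removes a share of progenitors and young neurons.

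Mpp5, the gene symbol of Pals1 on this array, checked the labels. Its brighter probe had intensities of 92.8, 80.2, 87.0 and 77.5 in CKO and 156.2, 152.7, 143.8 and 139.7 in WT, and all CKO arrays lay below all WT arrays (change -0.87 on the log2 scale, limma adjusted p = 8.43e-06; exact two-sided permutation p = 0.0286, the smallest that 70 assignments allow). In CKO this probe was at a mean log2 level of 6.20, below the brightness filter (a mean log2 level above 6.26, the lower quartile of all probes), and it passed through its WT level of 7.06, so the size of the change depends on the background setting (-1.34 to -0.67). Its dimmer probe was below the filter in both groups and had a change of 0.032 (limma adjusted p = 0.878 over all probes without a filter), and its position in relation to the deleted segment is not known here. Markers of cerebellar cell types were present, with Barhl1 for granule cell progenitors and Foxp2 for Purkinje cells above the brightness filter, while Atoh1, Pax6, Calb1 and Pcp4 were below it. Median intensity per array ranged from 118.7 to 133.5 in CKO and from 124.1 to 132.3 in WT. Xist, transcribed from the silenced X, was at log2 levels of 6.60 to 6.77 in CKO and at 6.83 in WT.3, against 9.71 to 10.10 in the other WT animals. The Y-linked Eif2s3y had the opposite pattern, at 9.26 to 9.59 in CKO and 8.98 in WT.3, against 5.94 to 6.05 in the others. By these markers all CKO animals and WT.3 had the male pattern, and WT.1, WT.2 and WT.4 the female pattern. Sex thus differs between the groups along with genotype. Where the Xist level as a covariate ended a call, the change under it is given below.

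Fas, Apaf1 and Eda2r were higher in CKO cerebella, by 1.44-fold, 1.24-fold and 1.17-fold for the brightest probe of each gene. Casp9, Tnfrsf10b, Casp8 and Casp6 did not pass the test, and Perp was too dim to be tested. Of the 7 genes tested, 3 were therefore called higher and 0 lower at an adjusted p of 0.05. Over all 12912 genes tested, 9.15% were called higher and 8.64% lower in CKO, 17.8% in all. Of these calls 51.5% were higher in CKO, a share that median scaling of the arrays in place of quantile normalization moved to 37.2%. The 3 called genes were also those whose CKO and WT arrays did not overlap on the normalized scale, in a background of 10.9% of genes with all CKO arrays higher and 10.2% with all CKO arrays lower. The median change of the 7 genes was 0.19 on the log2 scale, against 0.0075 for all genes tested. The members were chosen with earlier results of these data known, so their counts and median are not independent evidence. The 3 calls fell on a receptor of the extrinsic route, the scaffold of the intrinsic route and an ectodysplasin receptor. Of the 3 caspases 0 were called, which with 9.15% of all genes called higher does not set them apart. Casp9 had a change of 0.19 on the log2 scale (limma adjusted p = 0.125), close to the 0.22 of Eda2r. Casp8 and Casp6 had changes of -0.049 and -0.13. Eda2r kept its call under 9 and Apaf1 under 14 of the 22 alternative settings described below.

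**Figure D1:**
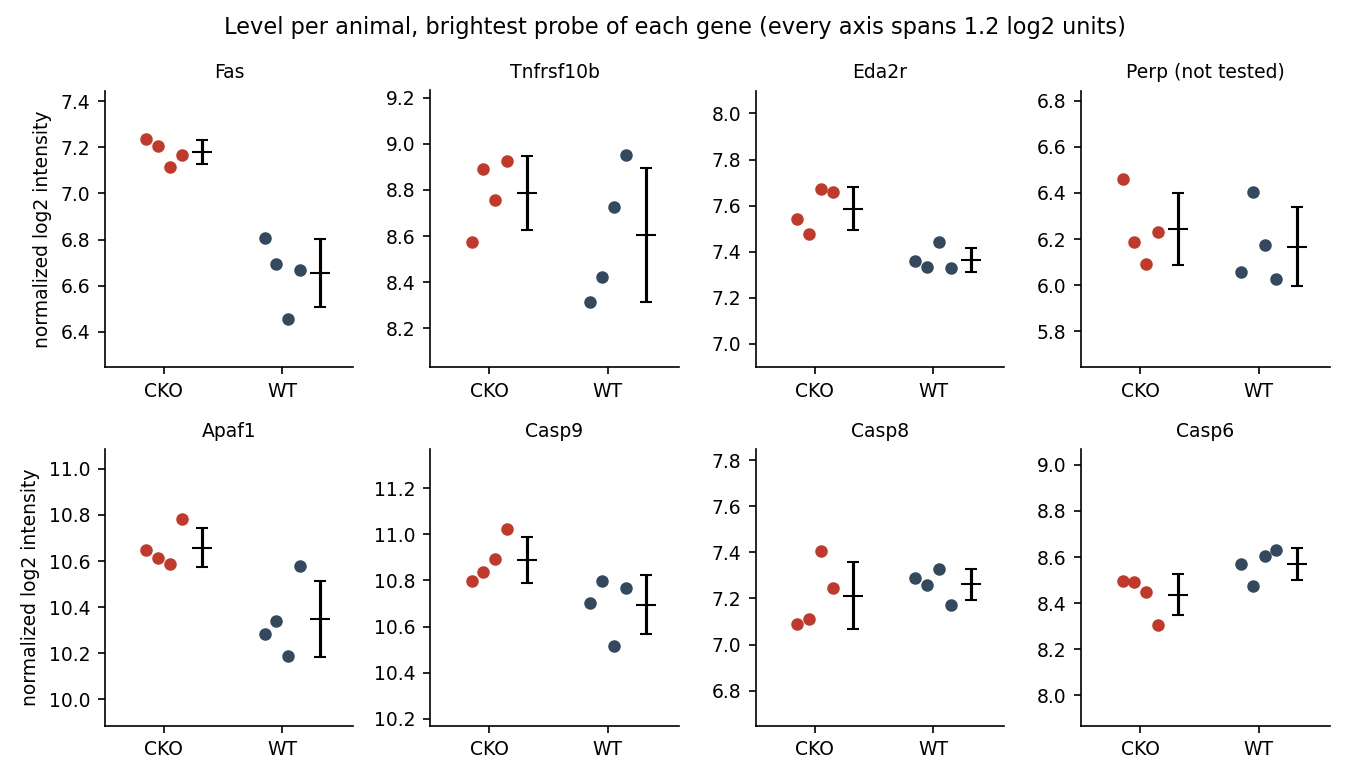
Normalized log2 intensity of the brightest probe of each of the 8 genes, with a point per animal, CKO on the left of each panel and WT on the right, and the mean ± SD of 4 animals beside the points. All CKO points lie above all WT points for Fas, Eda2r and Apaf1, and the groups overlap for the other genes.

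Promoter sequence is shown for the 3 genes that rose, to set their start regions side by side. Each line gives the 250 bases before the transcription start in RefSeq (build GRCm38.p6), 5′ to 3′ on the strand of the gene, with GGGCGG or its reverse complement, the core of the GC box, in capitals. The windows are, for Fas, chr19:34290409-34290658 (plus strand), for Eda2r, chrX:97377210-97377459 (minus strand) and for Apaf1, chr10:91082744-91082993 (minus strand).
Fas: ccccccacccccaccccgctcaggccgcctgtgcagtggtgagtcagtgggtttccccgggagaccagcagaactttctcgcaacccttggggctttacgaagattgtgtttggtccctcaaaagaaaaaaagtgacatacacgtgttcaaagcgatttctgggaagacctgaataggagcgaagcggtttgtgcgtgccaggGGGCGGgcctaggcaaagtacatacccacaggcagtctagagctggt
Eda2r: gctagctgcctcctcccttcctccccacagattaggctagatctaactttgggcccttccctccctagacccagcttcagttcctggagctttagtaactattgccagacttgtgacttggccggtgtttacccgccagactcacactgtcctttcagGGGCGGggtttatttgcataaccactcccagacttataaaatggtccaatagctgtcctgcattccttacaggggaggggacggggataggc
Apaf1: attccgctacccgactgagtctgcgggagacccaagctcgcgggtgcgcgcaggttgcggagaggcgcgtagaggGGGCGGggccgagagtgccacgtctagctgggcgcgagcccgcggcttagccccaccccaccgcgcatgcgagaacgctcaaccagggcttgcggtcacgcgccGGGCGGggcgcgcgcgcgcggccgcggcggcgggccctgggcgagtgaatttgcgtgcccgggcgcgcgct
The Apaf1 window was 75.6% G and C with 42 CpG dinucleotides, the Fas window 56.4% with 11, and the Eda2r window 53.2% with 4. Windows were matched for 6 of the 8 genes (Tnfrsf10b and Perp had none in the table). GGGCGG on either strand was present in 5 of these 6, all but Casp8, and in 32.7% of the 32851 windows of all genes. TATAAA on either strand was found in Eda2r, 58 bases before the start (position -58), among 12.4% of all windows. CCAAT on either strand was found in Eda2r and Casp8, among 33.8% of all windows. The consensus of a p53 half-site, without mismatch and on either strand, was in 0 of the 6 windows and in 7.13% of all windows. The motifs searched did not overlap each other in these windows, and a motif match or its lack describes these letters only.

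Fas, the receptor CD95, had the largest change of the 8 genes. The array carries 3 Fas probes, all annotated to the same transcript. Probe ILMN_2479290 had intensities of 170.7, 149.0, 152.0 and 143.5 in CKO, against 129.0, 119.8, 98.9 and 111.9 in WT, so that all CKO animals were above all WT animals. On the normalized log2 scale its level was 7.18 ± 0.053 in CKO and 6.66 ± 0.15 in WT (SD, n = 4 each). The change was 0.53 (SE 0.080, 95% interval 0.35 to 0.70, limma adjusted p = 0.000761), and it ranked 302 by p among the genes tested. Probe ILMN_2902979 had intensities of 180.5, 148.6, 149.9 and 165.7 in CKO, against 91.4, 99.1, 85.1 and 97.0 in WT. Its normalized level was 7.26 ± 0.14 in CKO and 6.32 ± 0.11 in WT (SD, n = 4 each), a change of 0.94 or 1.91-fold (95% interval 0.75 to 1.12, limma adjusted p = 1.98e-05 over all probes). The intervals of these probes do not overlap, so the size of the rise depends on the probe. On the WT arrays the second probe lay at percentiles 20.4 to 34.1 of all probes and on the CKO arrays at 55.8 to 61.2, so that its WT level is close to the dim end of the array. The third probe, ILMN_2454420, was below the brightness filter, with intensities of 80.9 to 93.0 in CKO and 83.4 to 90.8 in WT, and the groups overlapped. Fas kept its call under all 22 alternatives (change from 0.43 to 0.74, adjusted p from 0.000265 to 0.0298). These included the Xist covariate, with a change of 0.74 (adjusted p = 0.00663), and the 4 CKO arrays against WT.3 alone, with 0.73. WT.3 was the lowest WT animal on the brightest probe (log2 level 6.46). Both values rest largely on WT.3 and are not separate evidence.

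**Figure D2:**
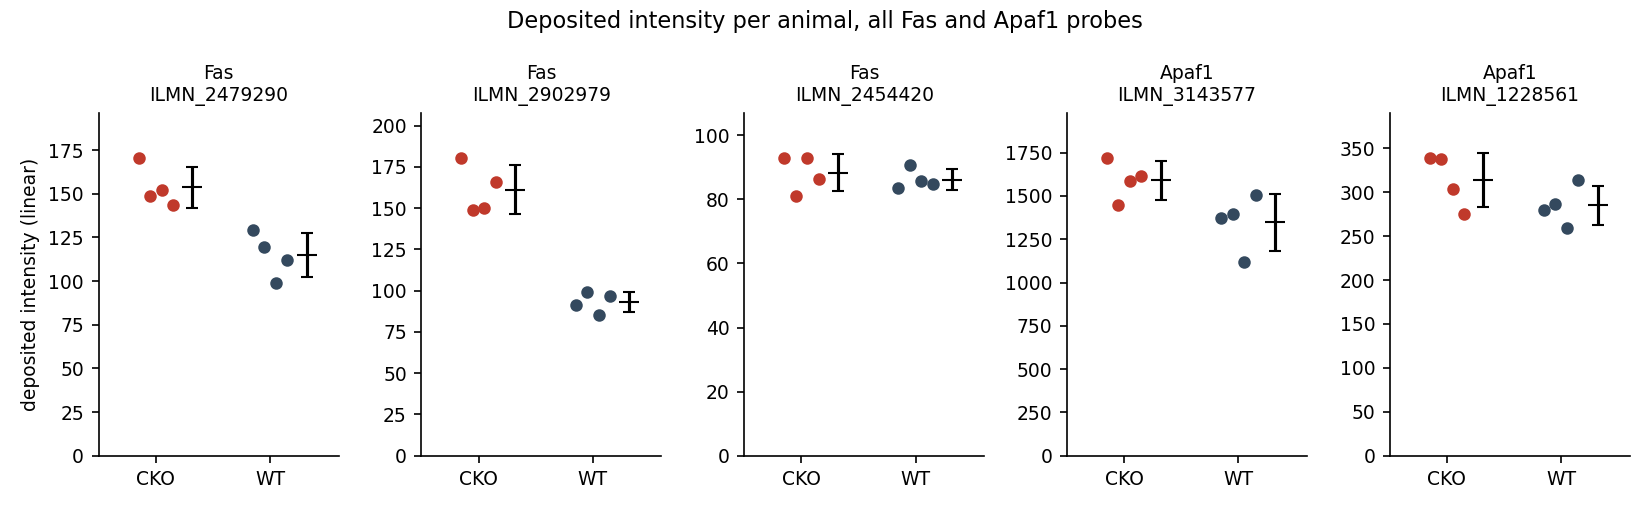
Deposited linear intensity of each Fas probe and each Apaf1 probe by animal, CKO left and WT right, with the mean ± SD of 4 animals beside the points. CKO lies above WT without overlap for ILMN_2479290 and ILMN_2902979 of Fas, the third Fas probe stays between 80.9 and 93.0 in both groups, and the groups of both Apaf1 probes overlap before normalization.

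Eda2r, a receptor for an ectodysplasin isoform, lies on the X chromosome and has 1 probe. Its intensities were 208.6, 176.7, 217.9 and 192.2 in CKO and 187.1, 182.0, 180.5 and 172.1 in WT, so that CKO.2 lay within the WT range before normalization. The normalized log2 level was 7.59 ± 0.094 in CKO and 7.36 ± 0.053 in WT (SD, n = 4 each), with the lowest CKO animal at 7.48 and the highest WT animal, WT.3, at 7.44. The change was 0.22 (SE 0.069, 95% interval 0.072 to 0.37, limma adjusted p = 0.0420). The call was lost under 13 of 22 alternatives (adjusted p from 0.0299 to 0.540 over all of them). It was lost without CKO.1, CKO.3, CKO.4, WT.1, WT.2 or WT.4 and with median scaling (adjusted p = 0.0965). With the Xist covariate the change was 0.15 (adjusted p = 0.477), and against WT.3 alone it was also 0.15 (adjusted p = 0.540).

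Tnfrsf10b, the TRAIL receptor DR5, has 5 probes, of which 3 passed the filter and 0 were called. Its brightest probe had intensities of 412.4, 446.8, 454.1 and 446.6 in CKO, against 359.8, 379.0, 419.8 and 501.2 in WT. WT.4 exceeded all CKO animals while WT.1 and WT.2 lay below all of them, so the WT group spanned the CKO group. The normalized level was 8.79 ± 0.16 in CKO and 8.60 ± 0.29 in WT (SD, n = 4 each), a change of 0.18 (SE 0.13, 95% interval -0.092 to 0.46, limma adjusted p = 0.377). The other probes past the filter had changes of 0.087 and 0.11 (limma adjusted p = 0.644 and 0.383 over all probes). Perp, a membrane protein of desmosomes and an effector of p53, has 1 probe, which was below the filter. Its intensities were 104.3, 80.1, 79.0 and 84.1 in CKO and 79.9, 99.7, 84.3 and 76.3 in WT, with normalized log2 levels of 6.24 ± 0.16 in CKO and 6.17 ± 0.17 in WT (SD, n = 4 each). The Perp groups overlapped, and no test was made at this brightness.

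Apaf1, the scaffold of the apoptosome, has 2 probes annotated to different transcripts. The brighter, ILMN_3143577, had intensities of 1721.2, 1447.6, 1584.1 and 1613.2 in CKO, against 1372.5, 1397.3, 1116.4 and 1504.1 in WT. Before normalization CKO.2 lay below WT.4. On the normalized log2 scale the lowest CKO animal was at 10.59 and WT.4, the highest WT animal, at 10.58. The level was 10.66 ± 0.086 in CKO and 10.35 ± 0.17 in WT (SD, n = 4 each), a change of 0.31 (SE 0.087, 95% interval 0.12 to 0.50, limma adjusted p = 0.0257). The dimmer probe, ILMN_1228561, was at 8.28 ± 0.13 in CKO and 8.06 ± 0.14 in WT (SD, n = 4 each), with overlapping groups and a change of 0.22 (limma adjusted p = 0.110 over all probes). The call of the brighter probe was lost under 8 of 22 alternatives (adjusted p from 0.00603 to 0.0798 over all of them), 5 of which left out CKO.1, CKO.4, WT.3, WT.2 or WT.1. With the Xist covariate the change of Apaf1 was 0.46 (adjusted p = 0.0688), and against WT.3 alone it was 0.47. WT.3 was the lowest WT animal on the brighter probe (log2 level 10.19), and both values rest largely on it.

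Casp9, the initiator that Apaf1 activates, did not pass the test. The brightest of its 3 probes had intensities of 1923.4, 1682.9, 1949.3 and 1915.3 in CKO, against 1834.3, 1914.1, 1387.6 and 1708.0 in WT. The normalized level was 10.89 ± 0.099 in CKO and 10.70 ± 0.13 in WT (SD, n = 4 each), and WT.2 just exceeded the lowest CKO animal, CKO.1. The change was 0.19 (SE 0.080, 95% interval 0.018 to 0.37, limma adjusted p = 0.125), and under the 22 alternatives it ran from 0.11 to 0.38 without a call (adjusted p from 0.0703 to 0.325). The other 2 probes, both between percentiles 17.4 and 40.9 of the arrays, had changes of 0.028 and 0.12 (limma adjusted p = 0.868 and 0.344 over all probes).

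Casp8, the initiator downstream of death receptors, did not pass the test. Its brighter probe had intensities of 155.8, 140.5, 183.4 and 150.4 in CKO, against 179.1, 173.2, 167.7 and 154.8 in WT, and CKO.3 was the highest of the 8 animals. The normalized level was 7.21 ± 0.15 in CKO and 7.26 ± 0.067 in WT (SD, n = 4 each), a change of -0.049 (95% interval -0.22 to 0.13, limma adjusted p = 0.747). The second probe, annotated to another transcript, had CKO.3 as the lowest animal at 134.4, and a change of 0.060 (limma adjusted p = 0.663 over all probes). Casp6, the executioner, did not pass the test on either of its probes, with changes of -0.13 (95% interval -0.29 to 0.018, limma adjusted p = 0.225) and -0.16 (limma adjusted p = 0.188 over all probes). Its brighter probe had intensities of 390.7, 345.1, 368.0 and 296.1 in CKO and 426.2, 393.7, 383.9 and 404.7 in WT, and CKO.1 exceeded WT.3.

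**Figure D3:**
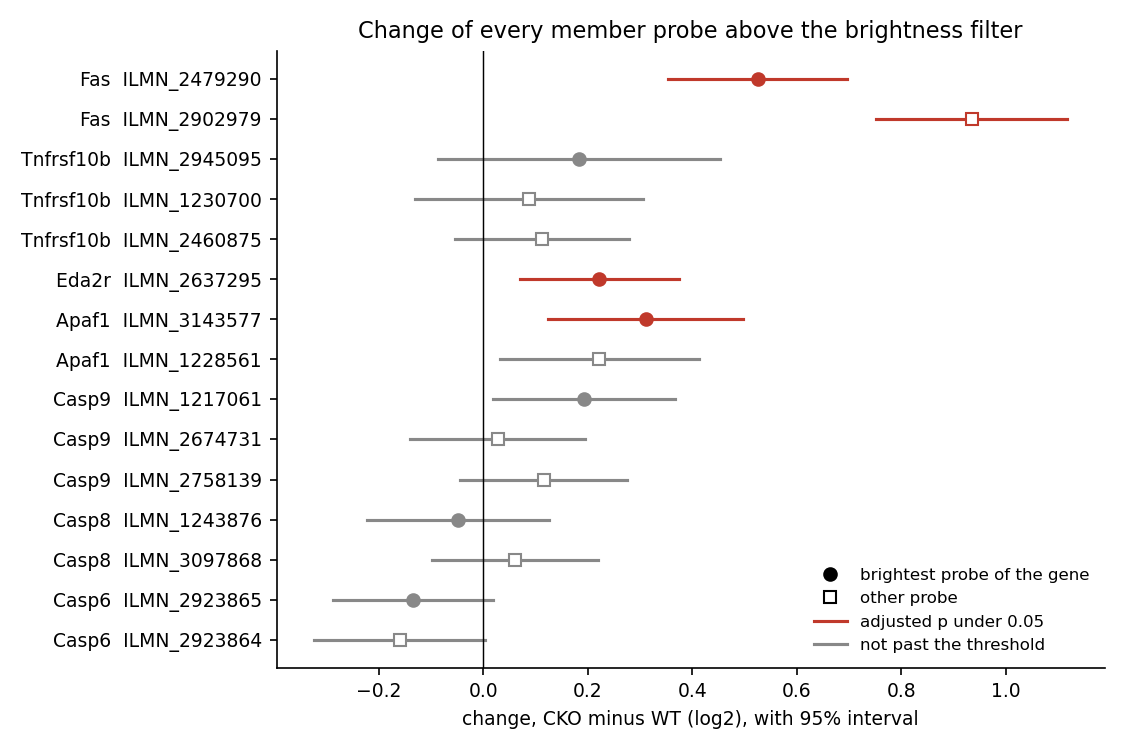
Change of each of the 15 probes of these genes that passed the brightness filter, as CKO minus WT on the log2 scale with its 95% interval. Filled circles mark the brightest probe of a gene and open squares the others. The 4 intervals in red, of both Fas probes, Eda2r and the brighter Apaf1 probe, belong to calls at an adjusted p of 0.05 over all probes.

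Taken by probe, 4 of the 15 probes past the filter were called higher and 0 lower, where 8.15% of all 19272 probes tested were called higher and 7.98% lower. Those 4 are 2 probes of Fas and 1 each of Apaf1 and Eda2r, and probes of the same gene are not separate evidence. On the log2 scale the mean deviation of the 7 tested genes from their 8-array mean was 0.038, 0.071, 0.11 and 0.14 in CKO.1 to CKO.4 and -0.11, -0.12, -0.12 and -0.0047 in WT.1 to WT.4, so that WT.4 stood nearest to the CKO animals. Over the 8 arrays the genes whose levels ran most like Fas were Rtn4rl1 (Pearson r = 0.992) and Ankrd34a (r = 0.989). Those most like Apaf1 were Ipmk (r = 0.985) and Dus3l (r = 0.980), those most like Eda2r were Amn (r = 0.980) and Igf2r (r = 0.979), and those most like Casp9 were Efnb3 (r = 0.983) and Cep70 (r = 0.981). For Tnfrsf10b the nearest were Arfip2 (r = 0.968) and Pcyt2 (r = 0.948), for Casp8 Tmem51 (r = 0.949) and Slco2a1 (r = 0.947), and for Casp6 Atg10 (r = 0.990) and Cox7a2l (r = 0.951). These are the highest of 12911 correlations each over 8 arrays that share a genotype difference, and describe likeness only.

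Of the other caspases listed, 4 were tested, of which 1 was called higher and 1 lower, and the median change was -0.020. Over all genes 17.8% were called in either direction, and a count this small does not set the list apart. Casp1, the inflammatory caspase that matures interleukin-1, was at log2 levels of 6.64, 6.66, 7.17 and 7.03 in CKO, against 6.59, 6.46, 6.56 and 6.36 in WT. It rose by 0.38 (SE 0.11, limma adjusted p = 0.0323), with CKO.3 and CKO.4 well above the rest, and lost its call without CKO.3, CKO.4, WT.2, WT.3 or WT.4 (adjusted p up to 0.0971, and 0.0178 to 0.431 in all alternatives run). Casp2, an initiator linked to the PIDDosome, was at 10.91, 10.91, 11.28 and 10.93 in CKO, against 11.40, 11.37, 11.32 and 11.32 in WT. It fell by 0.34 (SE 0.086, limma adjusted p = 0.0144), and without CKO.3, the highest CKO animal, it was -0.43 (adjusted p = 0.000628, and 0.000628 to 0.308 in all alternatives run). Casp4 and Casp12 did not pass, and Casp14 was below the filter.

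Among other death receptors, dependence receptors and their ligands, 11 of 16 listed genes were tested, of which 1 was called higher and 2 lower. Over all genes 17.8% were called in either direction, and the median change of the list was 0.086. Unc5b, a netrin receptor that can signal death without its ligand, fell by 0.44 (SE 0.078, limma adjusted p = 0.00192), with log2 levels of 7.47 to 7.73 in CKO and 7.93 to 8.17 in WT. Tnfrsf22, a mouse decoy receptor for TRAIL, fell by 0.24 (limma adjusted p = 0.0324), and averaged over its 3 probes it was at -0.056 (adjusted p = 0.582, and 0.0102 to 0.582 in all alternatives run). Ngfr, the neurotrophin receptor p75, rose by 0.36 (limma adjusted p = 0.0278), with log2 levels of 9.45 to 9.86 in CKO and 9.08 to 9.40 in WT. Fasl, the ligand of Fas, was tested and did not pass, Tnfsf10, the ligand TRAIL, was below the filter, and Tnfrsf1a and Tnfrsf21 did not pass.

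Of 20 listed adaptors and caspase inhibitors 11 were tested, of which 1 was called higher, 1 lower and 9 did not pass, a share of calls near the 17.8% over all genes, and the median change was -0.059. Fadd, which links Fas to caspase-8, fell by 0.26 (SE 0.074, limma adjusted p = 0.0285), with intensities of 351.5 to 445.8 in CKO and 454.5 to 565.7 in WT. Cycs, cytochrome c, the cofactor of Apaf1, rose by 0.30 (SE 0.086, limma adjusted p = 0.0307), with log2 levels of 7.84 to 8.11 in CKO and 7.47 to 7.82 in WT. Averaged over probes, Fadd was at -0.20 (adjusted p = 0.0603, and 0.0127 to 0.222 in all alternatives run) and Cycs at 0.16 (adjusted p = 0.117, and 0.0193 to 0.610). Tradd, Ripk1, Naip1, Hspa1b and Endog were not analysed here. Each of 4 calls was lost without some single arrays. Ngfr lost its call without CKO.3, CKO.4, WT.1, WT.2 or WT.4 (adjusted p up to 0.0829, and 0.0150 to 0.525 in all alternatives run). Tnfrsf22 lost it without CKO.1, CKO.2, CKO.4, WT.1, WT.2 or WT.4 (adjusted p up to 0.101). Fadd lost it without CKO.1, CKO.2, CKO.4, WT.2 or WT.3 (up to 0.0949), and Cycs without CKO.2, CKO.4, WT.1, WT.2 or WT.4 (up to 0.0960).

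Of 11 listed genes whose proteins caspases cleave or that act in dismantling the cell, 8 were tested. Of these 1 was called higher and 3 lower, where 17.8% of all genes were called in either direction. The median change of the list was -0.057. Lmna, the lamin A gene and a substrate of caspase-6, rose by 0.55 (SE 0.072, limma adjusted p = 0.000322), with log2 levels of 9.29 to 9.49 in CKO and 8.76 to 8.90 in WT. Lmnb1, lamin B1, fell by 0.61 (SE 0.079, limma adjusted p = 0.000308), with log2 levels of 11.74 to 11.99 in CKO and 12.40 to 12.65 in WT. Parp1, a DNA repair enzyme, fell by 0.51 (SE 0.074, limma adjusted p = 0.000555), with log2 levels of 10.23 to 10.50 in CKO and 10.78 to 10.90 in WT. Averaged over their probes, the changes were smaller, at 0.37 for Lmna, -0.54 for Lmnb1 and -0.42 for Parp1 (limma adjusted p = 0.00106, 0.00203 and 0.000741). The third gene that fell, Rock1, a kinase of the actin cytoskeleton, named here after its values were seen, fell by 0.25 (limma adjusted p = 0.0487). Rock1 was not followed under the alternatives. With the Xist covariate the calls of 7 genes named above were lost, at changes of 0.33 for Casp1, -0.30 for Casp2, -0.35 for Unc5b, 0.23 for Ngfr, -0.18 for Tnfrsf22, 0.15 for Cycs and -0.28 for Fadd (adjusted p from 0.124 for Unc5b to 0.565 for Cycs). The change of Fadd was thus as large as without the covariate, where it was -0.26, while that of Cycs was smaller than its 0.30. Against WT.3 alone, a single WT array, Lmna, Lmnb1 and Parp1 had changes of 0.60, -0.58 and -0.55, close to those over all arrays, with adjusted p = 0.0510, 0.0568 and 0.0646, the highest of their alternatives. Transcript levels say nothing of cleavage, which was not measured.

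In a list of other targets and regulators of p53, many targets rose. Outside the 8 genes, 15 members of that list were tested, of which 10 were called higher and 0 lower, and the median change was 0.45. Over all genes tested 9.15% were called higher and 8.64% lower, and the median change was 0.0075. Mdm2, a target of p53 as well as its regulator, and the regulator Mdm4 did not pass (changes of 0.11 and -0.012, limma adjusted p = 0.262 and 0.937). Pmaip1, Gtse1 and Polk, like Mdm2 and Mdm4 named here after their values were seen, did not pass either. The atypical cyclin Ccng1 rose by 1.49, the Akt inhibitor Phlda3 by 1.24 and the kinase inhibitor Cdkn1a by 0.78 (limma adjusted p = 2.05e-06, 5.07e-06 and 2.18e-05), each past the threshold under all 22 alternatives. Some genes of this list were known from earlier results of these data to rise, so their count is not independent evidence. Trp53 itself and Bax were not analysed here.

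**Figure D4:**
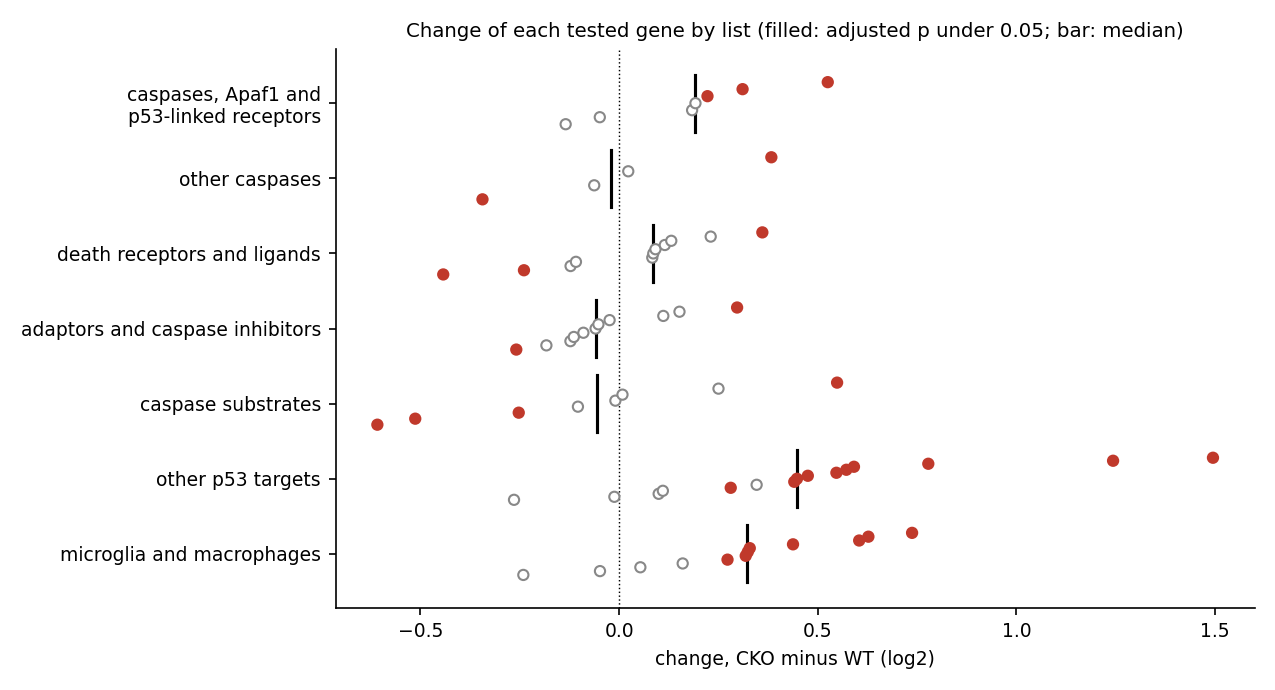
Change (CKO minus WT, log2) of each tested gene in the group described and in 6 lists beside it, with filled points for an adjusted p under 0.05 and a bar at the median of each list. The other p53 targets have a median of 0.45 and microglia and macrophage markers one of 0.32, while the other caspases, the receptors and ligands, the adaptors and inhibitors and the substrates have medians between -0.059 and 0.086.

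Markers of other cells moved between the groups too, and in bulk tissue fewer cells of a type and less RNA per cell cannot be told apart. The counts of markers are of calls, where 9.15% of all genes tested were called higher and 8.64% lower. These calls were not followed under the Xist covariate. Of 12 tested markers of microglia and macrophages, cells that can express Fas and Casp1, 8 rose and 0 fell. Their summed normalized intensity was 3748 to 4096 in CKO and 2869 to 3043 in WT, and Itgam was below the filter. Sums of this kind mostly follow the brightest genes of a list. Examples below are Slc1a3 for glia (mean log2 level 13.98 in CKO and 14.06 in WT) and Igf2 for meninges (13.48 in CKO.3). Markers of granule cell progenitors and division fell in 6 of 6 tested genes (summed intensity 6315 to 8713 in CKO and 11497 to 13814 in WT), those of granule neurons in 6 of 6 (12731 to 14601 in CKO and 19546 to 24596 in WT), and those of Purkinje cells rose in 3 of 5 (11216 to 12122 in CKO and 7422 to 8079 in WT). Meningeal markers passed in 0 of 8, with a summed intensity of 4559 to 15011 in CKO and 3400 to 4710 in WT, the highest value being CKO.3. Casp1 and the brighter Casp8 probe were also highest in CKO.3, and the second Casp8 probe was lowest there. For endothelium 2 of 8 rose (2369 to 2951 in CKO and 2146 to 2384 in WT), for epithelium and choroid plexus 1 of 7 fell (754.8 to 1031 in CKO and 908.9 to 1070 in WT), and for radial and Bergmann glia 0 of 7 passed (16500 to 20858 in CKO and 17633 to 20085 in WT). The part of these shifts in the changes of Fas, Eda2r, Apaf1, Casp1 and Casp2 was not tested.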

How the data were processed

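Total RNA of the cerebella was amplified into biotin-labelled cRNA and hybridised to Illumina arrays, per the labels' protocols. In the first deposited table each probe has a linear intensity on each array, not normalized between arrays. The export came from BeadStudio, per the submitters' processing notes (no version was named there). The deposited second table holds the authors' log2 values of the same arrays, each with a median of 6.98 and within 0.0137 of the log2 of the quantile-normalized intensity; it served as an alternative. No detection p-values were used, so brightness stood in for detection.

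Of 25697 probes 23978 had a symbol, 0 had several and 1719 had none. Intensities were corrected by normexp (offset 50), quantile-normalized and taken to log2 with limma 3.58.1 in R 4.3.3. A gene was its brightest probe, tested where its mean exceeded the lower quartile of all probes (log2 level 6.26), which left 12912 genes. The offset pulls changes of dim probes towards 0. Linear models with genotype alone were fitted by lmFit and eBayes, two-sided, with Benjamini-Hochberg adjustment over all genes and a threshold of 0.05. Probes were also fitted one by one, adjusted over 19272 probes. The fit was also run on simulated data with independent noise and known rises only. That setting is simpler than these arrays, so it checks the code alone. All 24 named genes, apart from genes said to be named later, follow a written rule: the 8 genes, Mpp5, 2 sex markers, and from every list of pathway genes, the called members that changed most (up to 3), or those of lowest p where fewer than 2 were called. For likeness, the 2 genes of highest Pearson r with each tested member were added. The members and the 15 lists (164 symbols, 142 on the array) were chosen with earlier results of these data known.

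The 22 alternatives covered the background, the scaling, the filter, the choice of probe, weights on arrays, moderation of variance, a replicate block, the Xist level and arrays left out. With so few arrays their number limits the precision. For the plots, matplotlib 3.10.9 ran under Python 3.11.15.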

Additional observations from a re-analysis of the deposited data

Results flagged for a closer look

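The level of Casp2 in CKO.3 lay far from the other CKO animals, at 11.28 against 10.91 to 10.93. Xist in WT.3 was at 6.83, far from the other WT animals at 9.71 to 10.10, and Eif2s3y in WT.3 was at 8.98 against 5.94 to 6.05. These are 3 of 48 groups of 4 animals examined, and chance alone would mark about 1 in 20. No level of Fas, Eda2r, Apaf1, Casp9, Casp8, Casp6, Tnfrsf10b or Perp stood apart in this way.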

How the results depend on the processing

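Over 22 alternatives the 7 tested genes gave 154 values, of which 132 kept their direction and their side of the threshold, 21 kept the direction and lost the call and 1 changed sign: with the mean of its probes Casp8 was at 0.0059 (adjusted p = 0.966). The count of genes called higher among them was 1, Fas, with the Xist covariate, with arrays of dim Xist only, and without both CKO.3 and WT.3; it was 1 to 3 when single arrays were left out, and 1 without CKO.1, CKO.4, WT.1 or WT.2. None was called lower in any setting run. Over all genes the Xist covariate gave 363 higher and 430 lower calls and the arrays with dim Xist 122 and 144, in a fit with fewer arrays. Leaving out single arrays gave 782 to 1299 higher and 791 to 1265 lower calls, the lowest higher count being without CKO.4. Median scaling gave 792 higher and 1337 lower calls, 37.2% higher against 51.5% in the main setting, and put the median change of all genes at -0.0060, against 0.0075. The fall of Mpp5 held its call in 21 of 21 settings that gave a value (-1.34 to -0.67 for its brighter probe, -0.42 for the mean of its probes, none with the filter at the median probe), and its other probe was at 0.032 (adjusted p = 0.878). Same-numbered animals deviated little together (r = 0.061, -0.036, 0.15 and -0.047 for numbers 1 to 4), though the WT animal most like CKO.3 was WT.3. The labels name no pairing, and correlations over so few animals cannot exclude one. With the replicate number as a block 1090 genes were called higher and 1057 lower. Of the genes described, 2 were called higher in that setting, Fas and Apaf1 (Eda2r had a limma adjusted p of 0.0560). The other 16 named genes gave 350 values, of which 292 kept the direction and the call, 57 lost the call and 1, the other Mpp5 probe, changed sign; the cause was not tested. The filter on detection p-values was not run, because the columns used here hold none. Dim probes limit what can be seen of Perp, the third Fas probe and the WT level of the second.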
